A study of Mus musculus with 2 samples.

Results

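The genes described are 44 genes of the DNA replication machinery, chosen as a list of symbols by known function, with earlier results of these data in view, and found through their Ensembl identifiers among the 19202 genes of the count table. All 44 were present, and all 44 passed the level floor of 1 CPM (counts scaled to a fixed library size) in the higher library. Total RNA had been sequenced from telencephalic tissue (the forebrain vesicles that form the cortex and basal ganglia) of mouse embryos at embryonic day 12, on the C57BL/6 background. One group was labelled H2AZcKO, a conditional knockout of the histone variant H2A.Z, and the other H2AZfl/fl, the floxed control. The control's allele can be deleted by Cre but is intact. The Cre line of the knockout was not given in the sources used here, which leaves unknown which cells of the tissue lose the gene. The tissue label names telencephalon while the extraction protocol names cerebral cortex.

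Although the design text speaks of triplicates, each genotype has 1 column of counts in the table, called a library here. No difference below has a replicate check, and no p-value was computed for the genotype. Counts summed to 8839840 in the H2AZ cKO library and 8891198 in the control library. The targeted gene H2afz was lower but present, at 191 CPM against 289 CPM (1664 and 2605 counts), 0.661 times the control (0.621 to 0.703). The libraries also differed in Xist (6384 against 200 counts) and in the Y-linked genes Kdm5d (5 against 647) and Uty (2 against 190), so embryonic sex and genotype cannot be told apart. The telencephalon markers Emx2 and Lhx2 were abundant in both libraries, at 93.7 to 587 CPM. The 5 erythroid markers were all higher in the H2AZ cKO, with a summed level of 514 CPM against 268 CPM.

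A cell copies its genome once per division. In G1 phase the origin recognition complex, Cdc6 and Cdt1 load the ring-shaped MCM helicase onto DNA, and geminin (Gmnn) blocks a second loading. At the start of S phase Cdc45 and the GINS complex turn the ring into an active helicase, the primase-polymerase alpha complex lays down primers, and the sliding clamp PCNA, placed by the RFC complex, holds the polymerases on the template. Most of these genes are targets of E2F transcription factors and are transcribed mainly in dividing cells, which in the early telencephalon are the progenitors along the ventricle. In bulk tissue, more cells of a type and more RNA per cell cannot be told apart.

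Replication genes stood slightly higher in the H2AZ cKO library than in the control. Ratios are H2AZ cKO over control after TMM scaling of the libraries, with exact 95% Clopper-Pearson intervals from the counts. These intervals cover counting error only, and even that in part, because the reads carry no molecular identifiers and copies of 1 molecule cannot be recognised. Log2 ratios are on log2(CPM + 1). Of the 44 genes 40 had a log2 ratio above 0, where 51.0% of the 14586 tested genes did, and 4 (Pole, Rfc1, Fen1 and Rpa3) had one below 0, against 49.0%. By total count 7 were below 0. The counting interval lay wholly above 1 for 20 genes, against 12.6% of all tested genes, and wholly below 1 for 1 gene, Rfc1, against 11.2%. By total count it was 16 of the 20, without Mcm10, Pola2, Prim1 and Rfc3. The replication genes were also better counted than most, with a median level of 67.0 CPM against 28.6 CPM over all tested genes, and an interval narrows as counts grow. At least 1.2-fold higher were 8 genes (11.4% of all tested genes), at least 1.2-fold lower 0 (13.4%). By total count 5 were higher and 1 lower, and with a joint trend of the ratio on transcript length, GC content and level removed 5 were higher and 0 lower. None of the 44 reached 1.5-fold in either direction, a size that 1.92% of tested genes passed upward and 3.03% downward. The median log2 ratio was 0.16 over the 44 genes and 0.01 over all tested genes. With that trend removed, it was 0.12, and 39 of the 44 genes were above 0. Summed, the 44 genes gave 36780 counts against 33693, a ratio of 1.13 (1.11 to 1.15).

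**Figure D1:**
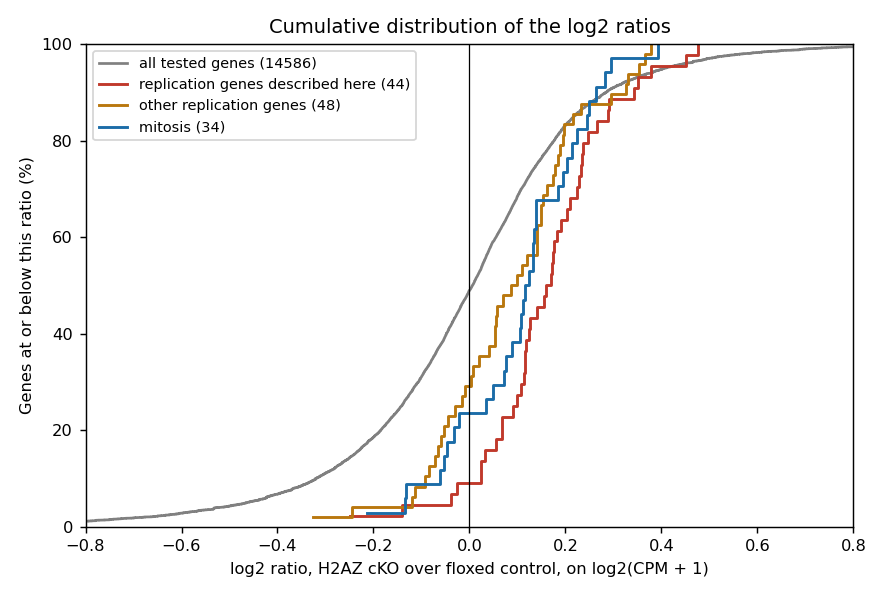
Cumulative share of genes (y axis, %) at or below each log2 ratio of H2AZ cKO over floxed control (x axis) for all 14586 tested genes, the 44 replication genes and the 2 lists set beside them. The curve of the 44 genes lies to the right of the curve of all genes, with a median of 0.16 against 0.01, and ends at 0.48.

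Promoters are shown because the genes are known as an E2F-driven set, and 19 of the 35 promoters found hold a sequence that E2F factors read. RefSeq promoters (build GRCm38.p6, 250 bases before to 50 after the transcription start) were matched by symbol for 35 of the 44 genes; Gins1, Gins2, Gins4, Gmnn, Mcm4, Pole, Prim2, Rfc2 and Tipin had no entry. Below are the 180 bases before the start for the 5 matched MCM genes, for Rrm1, and for Slbp, 5′ to 3′ on the gene's strand. Capitals mark E2F sequences (TTCCCGC or TTGGCGC) and the NF-Y box CCAAT, on either strand.
Mcm2 (chr6:88898781-88898960, minus strand): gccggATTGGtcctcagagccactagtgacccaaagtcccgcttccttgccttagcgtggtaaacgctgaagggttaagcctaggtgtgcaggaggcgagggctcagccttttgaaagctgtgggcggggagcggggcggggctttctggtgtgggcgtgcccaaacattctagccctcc
Mcm3 (chr1:20820313-20820492, minus strand): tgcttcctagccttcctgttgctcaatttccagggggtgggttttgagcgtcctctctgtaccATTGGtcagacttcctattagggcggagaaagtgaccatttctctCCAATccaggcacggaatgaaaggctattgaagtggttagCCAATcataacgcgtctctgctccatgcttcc
Mcm5 (chr8:75109329-75109508, plus strand): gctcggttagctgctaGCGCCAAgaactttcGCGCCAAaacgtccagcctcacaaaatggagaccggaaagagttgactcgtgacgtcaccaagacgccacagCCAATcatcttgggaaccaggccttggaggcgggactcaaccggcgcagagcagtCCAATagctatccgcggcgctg
Mcm6 (chr1:128359706-128359885, minus strand): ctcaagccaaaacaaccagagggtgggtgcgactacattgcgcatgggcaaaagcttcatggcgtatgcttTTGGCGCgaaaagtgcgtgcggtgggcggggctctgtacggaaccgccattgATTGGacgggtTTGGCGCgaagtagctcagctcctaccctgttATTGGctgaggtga
Mcm7 (chr5:138171884-138172063, minus strand): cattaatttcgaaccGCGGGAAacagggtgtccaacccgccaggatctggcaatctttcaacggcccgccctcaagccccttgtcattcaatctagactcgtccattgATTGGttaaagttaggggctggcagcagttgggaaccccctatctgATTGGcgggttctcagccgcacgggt
Rrm1 (chr7:102441515-102441694, plus strand): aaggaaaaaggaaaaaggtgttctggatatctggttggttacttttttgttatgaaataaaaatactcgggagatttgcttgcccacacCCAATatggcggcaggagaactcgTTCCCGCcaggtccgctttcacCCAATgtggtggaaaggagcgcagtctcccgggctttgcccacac
Slbp (chr5:33652575-33652754, minus strand): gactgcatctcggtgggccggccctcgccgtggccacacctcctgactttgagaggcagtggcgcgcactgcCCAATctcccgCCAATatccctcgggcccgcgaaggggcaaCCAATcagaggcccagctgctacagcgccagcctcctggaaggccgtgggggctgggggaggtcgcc

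Mcm5 and Mcm6 held 2 E2F sequences each in these 180 bases, Mcm7 and Rrm1 held 1, and Mcm2, Mcm3 and Slbp held 0. After the start, outside the printed bases, Mcm3 held E2F sequences that begin at bases 20, 40 and 43, and Mcm7 at base 21. Mcm7 has 2 promoter windows. The printed one, nearest to the deposited 5′ end, lies inside the deposited span of the gene. The other window holds TTCCCGC from base -113 of its own start. A gene with more than 1 window was counted below if any of its windows matched. Each of the 7 held at least 1 CCAAT box, with 3 in Mcm3 and 3 in Slbp. Over the whole 300-base window, 19 of the 35 matched genes (54.3%) held TTCCCGC or TTGGCGC on either strand, against 13.4% of 11751 protein-coding genes of the table and 7.79% of all 27025 genes with a promoter. The longer forms TTTCCCGC or TTTGGCGC, which contain the shorter ones, occurred in 10 of 35 (28.6%) against 3.16% of the protein-coding genes. CCAAT occurred in 23 of 35 (65.7%) against 42.6%. TTTGAA, the core of the cell cycle homology region (CHR) of mitotic genes, occurred in 4 of 35 (11.4%) against 14.4%. In 43 matched promoters of other replication genes, the shorter E2F sequences occurred in 21 (48.8%) and the longer forms in 9 (20.9%), near the shares of the 35. Their shares of CCAAT (20, 46.5%) and TTTGAA (11, 25.6%) were further from those of the 35. Among 29 matched mitosis genes E2F and CHR sequences were the other way round, with TTTGAA in 20 (69.0%) and the shorter E2F sequences in 3 (10.3%). CCAAT occurred in 21 of the 29 (72.4%), near the share of the 35. For the shorter forms the median log2 ratio was 0.15 for the 19 replication genes with a match and 0.21 for the 16 without. For the longer forms the order was the opposite, 0.18 for the 10 with a match and 0.15 for the 25 without, and neither difference was tested. A match describes the letters only, and neither occupancy nor activity was measured.

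**Figure D2:**
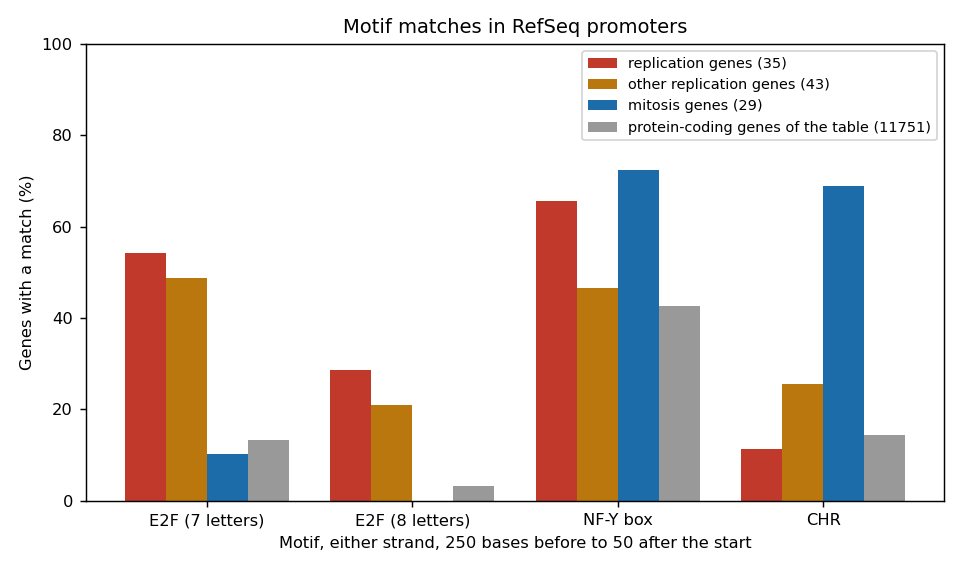
Percent of genes (y axis) whose RefSeq promoter holds each motif on either strand (x axis), for the replication genes, the other replication genes, the mitosis genes and the protein-coding genes of the table. E2F sequences were found in 54.3% of the replication genes and the CHR core in 69.0% of the mitosis genes, with 13.4% and 14.4% of protein-coding genes as the background.

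The MCM2-7 helicase is the ring of 6 related ATPases that unwinds DNA at the fork. All 6 genes had a counting interval above 1, against 12.6% of all tested genes. Mcm7 (chromosome 5, 138164583 to 138172422) reached 371 CPM in the knockout library against 303 CPM, from 3230 and 2730 counts, 1.22 times the control (1.16 to 1.29). Mcm3 (chromosome 1, 20802968 to 20820312) was at 194 CPM against 158 CPM, also 1.22 times the control (1.14 to 1.31). Mcm2 (chromosome 6) stood at 223 CPM against 189 CPM, 1.18 times the control (1.10 to 1.26). The other three were closer to the control and close to each other. Mcm6 stood at 1.14 (1.06 to 1.22), Mcm5 at 1.13 (1.05 to 1.22) and Mcm4 at 1.13 (1.03 to 1.23). The 6 intervals all overlap, so no MCM gene can be set apart from the others at this depth. Summed, the 6 genes gave 11034 counts against 9678, a ratio of 1.18 (1.15 to 1.21), and their median log2 ratio was 0.21. Mcm7 shares 13.0% of its transcript with exons of Cops6 and Ap4m1 on the opposite strand, and the use of strand in the counting was not given in the sources used here.

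Genes that recognise and license origins were above the control in all 6 cases, mostly by less than counting error. Of all tested genes 51.0% were above it. Cdt1, the MCM loader, was at 59.0 CPM against 48.9 CPM (514 and 441 counts), 1.21 times the control (1.06 to 1.37). It was the only one of the 6 with an interval above 1, close to the share of 12.6% over all tested genes. Orc1, the largest subunit of the origin recognition complex, had just 68 counts against 49, a ratio of 1.44 (0.980 to 2.12). Gmnn, the Cdt1 inhibitor, was at 39.1 CPM against 33.7 CPM, 1.16 times the control (0.991 to 1.36). The intervals of Cdt1 and its inhibitor overlap over most of their length. The ATPase Cdc6 stood at 1.11 (0.926 to 1.32), Orc6 at 1.05 (0.941 to 1.17) and Orc2 at 1.02 (0.878 to 1.19). Summed, the group gave a ratio of 1.11 (1.05 to 1.18). The sign of Orc2 turned with the scaling (log2 -0.01 by total count) and that of Orc6 with that trend removed (log2 -0.04).

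Gins1 had the largest log2 ratio of the 44 genes on log2(CPM + 1), 0.48. The thinly counted Orc1 (0.45) was ahead of it with a pseudocount of 0.1 CPM (0.51 against 0.49) and with the joint trend removed (0.50 against 0.38). Gins1 encodes a subunit of the GINS tetramer, which joins the MCM ring to Cdc45 at the fork. Gins1 (chromosome 2, 150905400 to 150931280) was at 50.8 CPM against 36.3 CPM, from 443 and 327 counts, 1.40 times the control (1.21 to 1.62). The 3 partner genes of the tetramer were nearer to the control: Gins4 stood at 1.13 (0.979 to 1.31), Gins2 at 1.09 (0.909 to 1.32) and Gins3 at 1.04 (0.834 to 1.30). The interval of Gins1 overlaps each of theirs. Mcm10, which helps to start the helicase, was at 46.1 CPM against 39.0 CPM, 1.18 times the control (1.02 to 1.37). Cdc45 stood at 1.08 (0.937 to 1.24). Of these 6 genes all were above the control, against 51.0% of all tested genes. Gins1 and Mcm10 had an interval above 1, against 12.6%. Of the Gins2 transcript 70.7% overlaps Gse1 on the opposite strand, and without strand the reads of such a pair cannot be told apart.

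**Figure D3:**
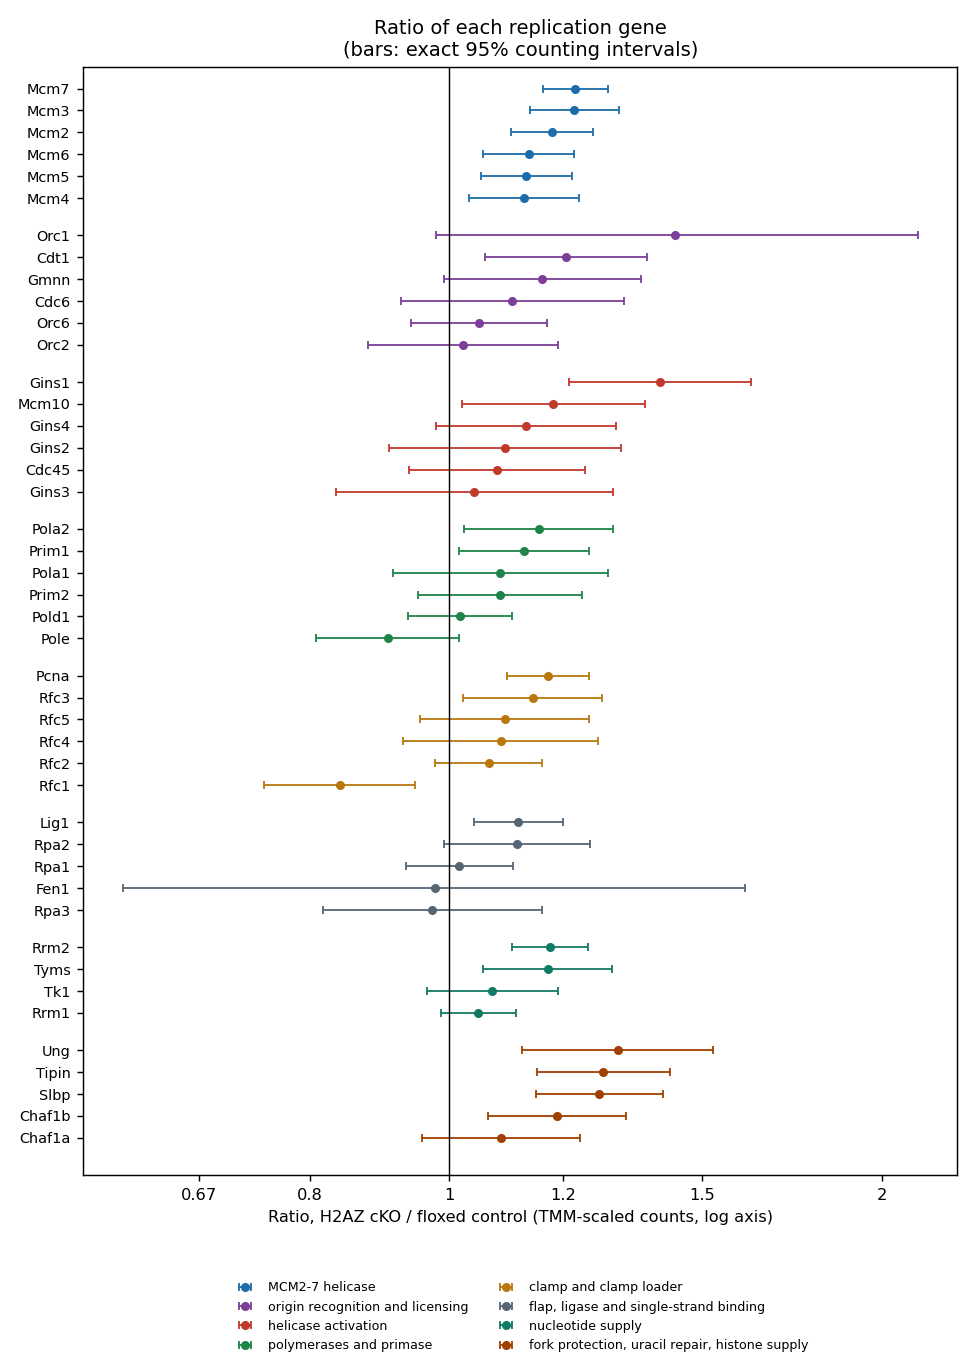
Ratio of H2AZ cKO over floxed control (x axis, log scale) for each of the 44 genes (y axis), grouped by role, with exact 95% counting intervals as bars. The 6 MCM genes lie at 1.13 to 1.22 with intervals above 1, Gins1 lies at 1.40, and Rfc1, at 0.839, is the one gene with an interval below 1.

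Polymerase alpha and primase, which together make the primers, were slightly above the control in each of their 4 subunits. Of all tested genes 51.0% were above it. Pola2 was at 67.5 CPM against 58.4 CPM, 1.15 times the control (1.02 to 1.30), and the catalytic primase subunit Prim1 at 87.1 CPM against 77.3 CPM, 1.13 times the control (1.02 to 1.25). The X-linked catalytic gene Pola1 stood at 1.09 (0.914 to 1.29) and Prim2 at 1.08 (0.952 to 1.24). The intervals of Pola1 and Prim2 include 1. The catalytic subunits of the enzymes that extend the strands had lower ratios than these 4 subunits. Pold1, of the lagging-strand polymerase delta, had 1130 counts, with 1149 in the control, a ratio of 1.02 (0.936 to 1.11). Pole, of the leading-strand polymerase epsilon, had 571 counts, with 652 in the control, a ratio of 0.906 (0.808 to 1.02), on chromosome 5 at 110286306 to 110337474. The intervals of Pold1 and Pole include 1. Under TMM scaling the interval of Pole lies wholly below that of Pola2 and meets that of Prim1 only at its end. With the joint trend on transcript length, GC content and level removed, all 3 intervals include 1 and so overlap. The log2 ratios were then -0.05 for Pole, 0.17 for Pola2 and 0.08 for Prim1. Pole has a transcript of 7163 bases, against 2421 for Pola2 and 1583 for Prim1. The part of length in these ratios was not tested.

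Pcna was higher in the H2AZ cKO library and the large subunit of its loader lower. Pcna (chromosome 2, 132249162 to 132253314), the sliding clamp, was at 222 CPM against 189 CPM (1933 and 1706 counts), 1.17 times the control (1.10 to 1.25). Rfc1 (chromosome 5, 65261850 to 65335670), the large subunit of the clamp loader, was at 56.2 CPM against 67.0 CPM (490 and 604 counts), 0.839 times the control (0.743 to 0.947). The small loader subunits stood above the control, Rfc3 at 1.14 (1.02 to 1.28), Rfc5 at 1.09 (0.955 to 1.25), Rfc4 at 1.09 (0.929 to 1.27) and Rfc2 at 1.07 (0.977 to 1.16). Under TMM scaling the interval of Rfc1 lies wholly below those of Rfc2, Rfc3 and Rfc5 and overlaps that of Rfc4. With the joint trend on transcript length, GC content and level removed, it also overlaps those of Rfc3 and Rfc5 and stays below that of Rfc2. Rfc1 has a transcript of 4.75 kilobases, against a median of 2.66 kilobases for the 44 genes. Rfc2 has a transcript of 4995 bases and stood at 1.07, and the part of length in either ratio was not tested. The log2 ratio fell with transcript length across all 14543 tested genes with a length (Pearson's r of -0.20, a description over genes that share 2 libraries). Across the 44 genes r was -0.29. With the joint trend on length, GC content and level removed, the log2 ratio of Rfc1 went from -0.25 to -0.21 and that of Pole from -0.14 to -0.05. For Pcna, whose transcript has 1.52 kilobases, it went from 0.23 to 0.11.

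Genes for finishing the lagging strand had the lowest median log2 ratio of the 8 role groups, 0.02, and it was -0.02 by total count. By summed counts their ratio was 1.07 (1.02 to 1.12), and that of the polymerase and primase genes, 1.05 (1.004 to 1.10), was nearer to the control. Lig1, the ligase that seals Okazaki fragments, was at 184 CPM against 165 CPM, 1.12 times the control (1.04 to 1.1998). The 3 subunits of RPA, the single-strand binding complex, stood at 1.02 (0.934 to 1.11) for Rpa1, 1.11 (0.991 to 1.25) for Rpa2 and 0.973 (0.817 to 1.16) for Rpa3. All 3 intervals include 1. Fen1, the nuclease that removes RNA-primed flaps, had 34 counts against 36, or 3.90 CPM against 3.99 CPM, 0.977 times the control (0.593 to 1.61). That is the lowest level of the 44 genes, and its interval spans more than any other gene's in this group. Of its 2373-base transcript 83.9% overlaps exons of Tmem258 and the antisense gene Gm10143 on the opposite strand, the highest share of the 44 genes. Whether reads in shared exons were discarded was not tested.

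Nucleotide supply was above the control in its 4 genes, where 51.0% of all tested genes were above it. Ribonucleotide reductase makes deoxyribonucleotides from a large subunit that is stable through the cycle and a small subunit that is made in S phase. The small subunit Rrm2 (chromosome 12, 24708241 to 24714146) was at 257 CPM against 218 CPM (2239 and 1970 counts), 1.18 times the control (1.11 to 1.25). The large subunit Rrm1 was at 251 CPM against 239 CPM (2185 and 2157 counts), 1.05 times the control (0.987 to 1.11). The 2 intervals overlap narrowly. Thymidylate synthase, Tyms, was at 90.9 CPM against 77.6 CPM, 1.17 times the control (1.06 to 1.30), and the thymidine salvage kinase Tk1 stood at 1.07 (0.964 to 1.19).

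The 5 genes for fork protection, uracil repair and histone supply had the highest median of the 8 role groups, a log2 ratio of 0.34. Ung, the glycosylase that removes uracil from DNA, was at 44.3 CPM against 33.8 CPM (386 and 305 counts), 1.31 times the control (1.12 to 1.53). Tipin, the partner of Timeless at the fork, was at 89.7 CPM against 70.1 CPM (782 and 632 counts), 1.28 times the control (1.15 to 1.42). Slbp, which binds the stem-loop of replication-dependent histone mRNAs, was at 97.2 CPM against 76.4 CPM (847 and 689 counts), 1.27 times the control (1.15 to 1.41). These 3, with Gins1, Mcm3, Mcm7, Cdt1 and Orc1, are the 8 genes past 1.2-fold under TMM scaling. Chromatin assembly factor 1 places new H3-H4 histones behind the fork. Its subunit Chaf1b stood at 1.19 (1.06 to 1.33) and Chaf1a at 1.09 (0.957 to 1.23), and 48.6% of the Chaf1a transcript overlaps Ubxn6 on the opposite strand.

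**Figure D4:**
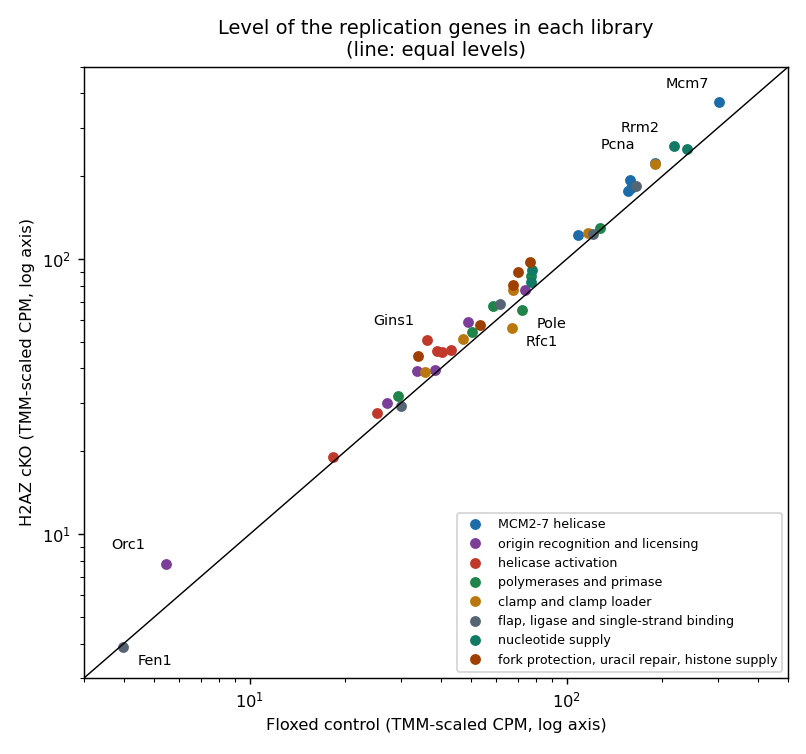
Level of each of the 44 genes in the floxed control (x axis) and the H2AZ cKO (y axis), in TMM-scaled CPM on log axes, coloured by role, with a line of equal levels. Levels run from 3.90 CPM for Fen1 to 371 CPM for Mcm7, and all but Pole, Rfc1, Rpa3 and Fen1 lie above the line.

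Transcript levels per kilobase within a complex were unequal, and their order was nearly the same in both libraries. Levels between genes are compared as scaled CPM per kilobase of the principal transcript. In the MCM ring, whose subunits are present once each, Mcm7 was highest at 102 CPM per kilobase in the control and 125 in the H2AZ cKO. Mcm4 was lowest, at 30.2 and 34.0, so the highest exceeded the lowest 3.39-fold and 3.67-fold. In GINS the order was Gins2, Gins3, Gins4 and Gins1 from low to high in both libraries. Gins1 reached 33.4 CPM per kilobase in the control and 46.8 in the H2AZ cKO, and Gins2, the lowest, 6.48 and 7.09. Of the Gins2 transcript 70.7% overlaps Gse1 on the opposite strand. How reads there were counted is not known, so the place of Gins2 in the order is uncertain. In RFC the large subunit Rfc1 was lowest (14.1 and 11.8 CPM per kilobase) and Rfc3 highest (51.4 and 58.7), again in the same order in both. The polymerase alpha gene Pola1 lay at 5.50 and 5.97 CPM per kilobase, far under its primase partner Prim1 at 48.8 and 55.0. Rpa1, Rpa2 and Rpa3 lay within 1.88-fold of each other in the control and 1.80-fold in the H2AZ cKO. In GINS and RPA the order ran from the longest transcript (Gins2 and Rpa1, 3900 and 5077 bases) to the shortest (Gins1 and Rpa3, 1087 and 670). Mcm4 and Pola1, the lowest of their complexes, also had the longest transcripts, while in RFC the longest, Rfc2, was not lowest. Before division by length Rpa1 was the highest RPA gene in both libraries (121 CPM against 30.1 CPM for Rpa3 in the control). The part of length in these orders was not tested. Neighbours that changed places were Mcm3 and Mcm6, at 52.3 and 54.7 CPM per kilobase in the control and 63.9 and 62.1 in the H2AZ cKO, and Pola2 and Prim2, at 24.1 and 25.4 in the control and 27.9 and 27.6 in the H2AZ cKO. With 1 library per genotype the spread of these levels over samples is unknown, and neither pair was tested for a difference.

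**Figure D5:**
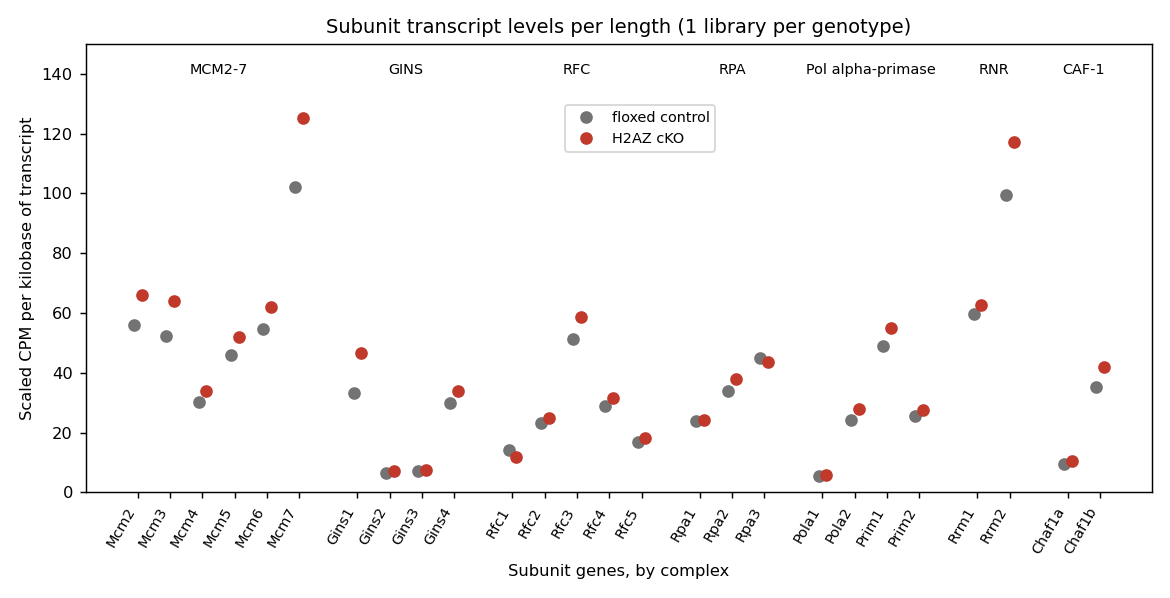
Scaled CPM per kilobase of transcript (y axis) for the subunit genes of 7 replication complexes (x axis), with 1 point per library. Mcm7 is highest in its ring (102 and 125) and Mcm4 lowest (30.2 and 34.0), and Rfc1 is the lowest RFC gene in both libraries.

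Beyond the 44, a second list held 48 other replication genes. Of these 34 had a log2 ratio above 0, 12 an interval above 1 and 5 an interval below 1, and the median log2 ratio was 0.09 (0.07 with the trend removed). Over all tested genes the shares were 51.0%, 12.6% and 11.2%, in that order. The 4 genes of this list with the largest log2 ratios were the dUTPase gene Dut at a ratio of 1.30 (1.201 to 1.41), Rnaseh2c at 1.30 (1.13 to 1.48), Dscc1 at 1.31 (0.965 to 1.78) and Pole4 at 1.27 (1.08 to 1.49). Dut and Rnaseh2c act on misplaced uracil nucleotides and on ribonucleotides in DNA. Below 1 lay Atad5 (0.793), which unloads PCNA, Shmt1 (0.839), Top1 (0.921), the maintenance methyltransferase Dnmt1 (0.937) and Ddb1 (0.942), named after their values were seen. The 5 of 48 genes with an interval below 1 were close to the share over all tested genes.

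The E2F and RB family, which controls transcription of replication genes, had 6 of 13 genes above 0, where 51.0% of all tested genes were. Its median log2 ratio was -0.03. E2f1, an activator, was at 65.5 CPM against 56.1 CPM, 1.17 times the control (1.03 to 1.32). E2f7, a repressor, stood at 0.822 (0.693 to 0.973), E2f3 at 0.843 (0.731 to 0.971) and E2f5 at 1.16 (0.990 to 1.35). Of the 13 genes 1 had an interval above 1 and 2 had one below 1, against 12.6% and 11.2% of all tested genes. Of 10 cyclin and kinase genes of G1 and S phase 7 were above 0, led by Ccnd1 at 1.27 (1.16 to 1.39) and Cdk4 at 1.195 (1.16 to 1.23). Ccne2 stood at 1.12 (0.928 to 1.35) and Cdk6 at 0.921 (0.814 to 1.04). Of 9 replication stress checkpoint genes 7 were above 0, with Etaa1 at 1.28 (1.05 to 1.55), Rad17 at 1.27 (1.07 to 1.51), Atrip at 0.658 (0.216 to 1.86, from 7 and 11 counts) and Wee1 at 1.14 (0.930 to 1.40).

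Mitosis genes, the list nearest in cell cycle use, had 26 of 34 above 0, 15 with an interval above 1 and 0 below 1, and a median log2 ratio of 0.12 (0.10 with the trend removed). Over all tested genes the shares were 51.0%, 12.6% and 11.2%. Cdk1 was at 1.32 (1.21 to 1.43), Birc5 at 1.23 (1.12 to 1.35), Kif2c at 1.22 (1.09 to 1.36) and Cdca8 at 1.201 (1.11 to 1.2999). Summed, mitosis genes gave a ratio of 1.08 (1.07 to 1.10) and the 48 other replication genes 1.05 (1.04 to 1.06). Both lie under the 1.13 (1.11 to 1.15) of the 44 genes, in counting error alone, and no test of the difference was possible with 1 library per genotype.

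Summed markers of apical progenitors, intermediate progenitors and neurons were each slightly higher in the H2AZ cKO library. Over all tested genes 51.0% had a log2 ratio above 0. The 8 apical progenitor markers (6 of 8 above 0) summed to 2830 CPM against 2632 CPM, 1.08 times the control (1.06 to 1.09). Single apical markers ran from Notch1 at 0.793 (0.735 to 0.855) to Hes5 at 1.62 (1.37 to 1.91). The 5 intermediate progenitor markers (4 of 5 above 0) summed to 1018 CPM against 972 CPM, and the 6 neuron markers (4 of 6 above 0) to 5551 CPM against 5427 CPM. Once the joint trend was taken out, 4 of 8 apical, 3 of 5 intermediate and 1 of 6 neuron markers were above 0. Macrophage markers were higher in 5 of 6 genes but summed to only 37.2 CPM against 26.9 CPM. The part of any of these cell types in the replication gene ratios was not tested.

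In the authors' deposited table, 9 of the 44 genes had an adjusted p under 0.05 and a higher value in the knockout, against 3.57% of its 19202 genes, and 1, Rfc1, a lower value, against 5.97%. The authors' deposited table marked 172 genes as significant, and 0 of the 44 were among them. The test behind its p-values, and whether it had replicates, was not given in the sources used here.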

How the data were processed

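RNA-seq counts were available as 1 column for the H2AZ cKO and 1 for the floxed control, headed WT per the file headers. The submitters' processing notes name HTSeq 0.6.0, TopHat2 2.0.12, Bowtie2 2.2.3 and the build mm9, without saying what each was used for. The deposited gene positions instead match GRCm38: 37 of the 44 genes have the same span in GENCODE M21. The deposited counts are whole reads per Ensembl gene, and the deposited CPM are these counts times a constant per library. The authors' fold change is a ratio of those CPM, and the authors' log2 is its logarithm. The authors' p-value has no stated test.

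Totals were 8839840 and 8891198 counts, where a 0 still permits 0.339 and 0.337 CPM, the level of 3 counts. Symbols were matched by identifier for 19112 genes. TMM factors (0.986 and 1.01) came from edgeR 4.0.16 in R 4.3.3, and size factors of an alternative from DESeq2 1.42.0. Further steps used Python 3.11.15 with scipy 1.17.1, pandas 2.3.3, numpy 2.4.6 and, for plots, matplotlib 3.10.9. Genes whose higher library reached 1 CPM were tested for size only, with a pseudocount of 1 CPM and Clopper-Pearson intervals at 95%. Length and GC content are of 1 transcript per gene, the longest coding one tagged as principal where there is one. The interval and the trend removal were tested on data simulated with counting noise and a planted length trend. These data hold no variation between samples, so the test cannot show how the intervals fare under it. Named genes are all 44, H2afz, and up to 4 of each other list by absolute log2 ratio. The genes, lists and sizes were chosen with earlier results of these data known. Protein sequences were not used here, and some marker genes of the lists are not reported here.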

Additional observations from a re-analysis of the deposited data

How the results depend on the processing

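With 1 library per genotype, no replicate could be left out. No paired analysis was possible because the table has 1 column per genotype. Over 10 alternatives (a pseudocount of 0.1 or of 5 CPM, a level floor of 0 or of 5 CPM, total count, DESeq2 size factors, the CPM as deposited, the length, GC and level trend removed, and the list without X-linked or without overlapping genes) the median log2 ratio of the replication genes ran from 0.12 to 0.19, and 16 to 20 genes had a counting interval above 1. Of the 20 genes 16 had one under all 8 alternatives to the processing; Mcm10, Pola2, Prim1 and Rfc3 lost it under at least 1 of them. Scaling shifted the median of all genes by -0.04 at most. Members below 0 were 7 in place of 4 by total count and by the deposited CPM, and 2 of the 30 without an overlapping gene. At least 1.2-fold higher were 5 in place of 8 by total count, by the deposited CPM and with the trend removed. At least 1.2-fold lower was 1 in place of 0, and an interval below 1 had 2 genes in place of 1, under total count, DESeq2 size factors and the deposited CPM. The cause was not tested. Every role group's median stayed between the medians of its members' lower and upper interval bounds, a wide range, but that of the flap, ligase and single-strand binding genes went from 0.02 to -0.02 by total count and by the deposited CPM. Of 264 single log2 ratios recomputed, 9 changed sign, all of genes whose interval includes 1 (Orc2, Orc6, Pold1, Rpa1 and Fen1), and 1, Pcna with the trend removed, left its interval. Depth limits Orc1 and Fen1, each under 100 counts in both libraries.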

Other observations

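Some replication genes share their start region with a gene on the other strand. Of the 44 genes 16 had such a neighbour with a start within 1000 bases. Of the 14 neighbours that reached the level floor 7 had a log2 ratio above 0, against 51.0% of all tested genes. An interval above 1 was found for 0 of them (12.6% of all tested genes) and an interval below 1 for 1 (11.2%). That one was Prkdc, the catalytic subunit of the DNA-dependent protein kinase, whose start lies 466 bases from that of Mcm4. Prkdc had 185 counts against 260, a ratio of 0.736 (0.606 to 0.892), while Mcm4 stood at 1.13 (1.03 to 1.23), and the 2 intervals do not overlap. Prpf38a, which starts 87 bases from Orc1, was at 693 counts in each library, a ratio of 1.03 (0.930 to 1.15). Abhd12, 659 bases from Gins1, stood at 1.08 (0.970 to 1.21), and its interval ends just under the start of that of Gins1 (1.21 to 1.62). Vps35 beside Orc6 (119 bases) stood at 1.02 (0.943 to 1.10).

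The MCM domain is annotated in 9 genes of the table: the 6 helicase genes, Mcm8, Mcm9 and Mcmdc2. Mcm8 and Mcm9, which act in recombination, stood at 0.958 (0.782 to 1.17) and 0.968 (0.757 to 1.24), while the 6 helicase genes were all above 1. Their intervals overlap those of all 6 helicase genes. That of Mcm8 (189 and 204 counts) ends just under the ratio of Mcm2 (1.18) and under those of Mcm3 and Mcm7 (1.22 each). That of Mcm9 (131 and 140 counts) includes the ratios of all 6. The difference was not tested.

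The deposited annotation gives its DNA replication term to 96 genes, 20 of them among the 44. Of the other 76, a set looked at after the data were seen, 71 were tested, 32 had a log2 ratio above 0, 13 an interval above 1 and 9 an interval below 1, with a median of -0.02. All tested genes had 51.0% above 0, 12.6% with an interval above 1 and 11.2% with one below 1.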
